A study of Mus musculus with 10 samples.

Results

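Immune checkpoint ligands and receptors were followed in the RNA of whole tumors of 4T1, a triple-negative mammary carcinoma line of the mouse. The 10 genes were chosen by name as established checkpoint molecules, not by a threshold on their values, and are 10 of the 17864 genes in the table. They are the ligand genes Cd274 (PD-L1), Pdcd1lg2 (PD-L2), Cd276 (B7-H3) and Lgals9 (galectin-9), the receptor genes Pdcd1 (PD-1), Ctla4, Lag3, Havcr2 (TIM-3) and Tigit, and Vsir (VISTA), which acts as both. All 10 had enough reads to be tested.

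The tumors came from 4T1 cells with Cas9 and a control guide RNA (sgCon, 5 tumors) or a guide RNA that targets Wwtr1, which encodes TAZ (sgTaz, 5 tumors). Cas9 and the guide RNAs were brought in with lentivirus in the tumor cells only, so that the host cells of both groups carried an intact Wwtr1. The study's methods describe females aged 6 to 8 weeks that received 100000 of these cells in a mammary gland, and name both immune competent BALB/c and immune deficient SCID hosts. The labels do not give the host of the sequenced tumors, and whether the edited cells were a pool or a clone is not stated in the sources used here. Although the labels name the cell type as tumor cell, RNA came from whole tumors, and markers of T cells, B cells and macrophages were detected. The paper describes SCID mice as without a working adaptive immune system. In the sequenced tumors the summed T cell genes were at 103 to 826 CPM (sgCon) and 67.8 to 213 CPM (sgTaz). The summed B cell genes were at 68.1 to 881 CPM and 7.56 to 195 CPM. The sum of counts was 14753922 to 19595821 per sgCon tumor and 12185383 to 18395558 per sgTaz tumor. Levels are given as CPM (counts scaled to a common library size) after TMM normalization, and 3 counts corresponded to 0.153 to 0.246 CPM.

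Checkpoint receptors are inhibitory proteins on activated T cells, and several are also carried by NK cells, regulatory T cells or myeloid cells. They dampen activation when bound by ligands on tumor cells, macrophages or dendritic cells. PD-L1 and PD-L2 share the receptor PD-1, and both genes are known to be induced by interferon-gamma, PD-L2 mostly in antigen-presenting cells. TAZ is a coactivator of the Hippo pathway that acts on genes through TEAD transcription factors. In RNA from a whole tumor, fewer cells of a type and less RNA of a gene per cell cannot be told apart.

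Cd274 (ENSMUSG00000016496.7) and Pdcd1lg2 (ENSMUSG00000016498.10) are neighbours on the plus strand of mouse chromosome 19 of mm10, from 29367455 to 29388095 and from 29410919 to 29471161. The 250 bases before the RefSeq start of these genes and of Lgals9 (ENSMUSG00000001123.15, minus strand of chromosome 11 from 78962974 to 78984946) are shown, since PD-L2 differed most between the groups and Lgals9 alone held a motif that was searched for. The sequences are those of RefSeq in GRCm38.p6, read 5′ to 3′ on the strand of the gene at chr19:29367188-29367437 (Cd274), chr19:29410669-29410918 (Pdcd1lg2) and chr11:78984925-78985174 (Lgals9). The RefSeq start of Lgals9 lies inside the GENCODE span given above, so that the last bases shown fall within that span. Capitals mark the interferon response motif.
Cd274: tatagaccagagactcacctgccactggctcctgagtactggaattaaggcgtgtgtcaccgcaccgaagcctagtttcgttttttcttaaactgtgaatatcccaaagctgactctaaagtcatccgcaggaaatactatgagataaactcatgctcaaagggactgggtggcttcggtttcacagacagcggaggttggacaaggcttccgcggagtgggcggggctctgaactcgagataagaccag
Pdcd1lg2: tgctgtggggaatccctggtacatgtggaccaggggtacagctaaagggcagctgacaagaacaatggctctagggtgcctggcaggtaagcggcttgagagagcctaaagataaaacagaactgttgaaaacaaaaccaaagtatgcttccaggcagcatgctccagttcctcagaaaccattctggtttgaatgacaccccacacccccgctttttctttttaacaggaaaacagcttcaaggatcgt
Lgals9: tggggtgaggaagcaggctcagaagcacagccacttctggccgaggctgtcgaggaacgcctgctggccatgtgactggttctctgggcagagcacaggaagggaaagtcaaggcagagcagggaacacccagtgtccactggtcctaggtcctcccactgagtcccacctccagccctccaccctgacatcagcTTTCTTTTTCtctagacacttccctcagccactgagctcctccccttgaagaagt

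Promoters were found for 9 of the 10 genes, all but Lag3, and were searched on both strands. The TEAD motif GGAATG occurred in 12.6% of 32851 mouse promoters and in 0 of the 9. The interferon-gamma activated sequence TTCNNNGAA occurred in 7.0% of all promoters and in 0 of the 9. The interferon response motif, GAAA with any 2 bases and a second GAAA, occurred in 3.0% of all promoters and in 1 of the 9, that of Lgals9, where it lay on the opposite strand with its first base at position -55 from the RefSeq start.

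To check the labels, the targeted gene was examined first. Wwtr1 was at 192, 181, 115, 171 and 156 CPM in sgCon tumors 1 to 5 and at 86.6, 104, 110, 139 and 102 CPM in sgTaz tumors 1 to 5. It was lower in sgTaz tumors by a log2 fold change of -0.59 (SE 0.15), which did not pass the quasi-likelihood test of edgeR (adjusted p = 0.096) and passed that of DESeq2 (adjusted p = 0.013). sgTaz tumor 4 lay above sgCon tumor 3, so that the groups overlapped. The 8 epithelial genes that mark tumor cells, led by Krt8 at 928 and 711 CPM, also all had negative log2 fold changes, with a median of -0.62, 5 with an unadjusted p below 0.05 in edgeR (11.9% of all genes were lower at this p) and 2 called lower by DESeq2 (3.63% of all genes). Their summed level was 3120 ± 996 CPM in sgCon and 2230 ± 760 CPM in sgTaz tumors (SD, n = 5 each), none was at 0, and their part in the value of Wwtr1 was not tested.

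To compare the ligands and the receptors between sgCon and sgTaz tumors, all 14816 genes with enough reads were tested with edgeR, and p-values were adjusted over all of them. PD-L2 was the member with the largest difference, with a mean 2.19-fold higher in sgTaz tumors, followed by PD-1. No member passed the test of edgeR at an adjusted p below 0.05, as 0.00675% of all genes did. By DESeq2, which called 7.22% of all genes, and by limma-voom, which called 10.4%, 1 of the 10 was called, Pdcd1lg2 in both. At an unadjusted p below 0.05 in edgeR, 2 members were higher (Pdcd1lg2 and Pdcd1) and 0 were lower, against 9.86% of all genes higher and 11.9% lower. The groups overlapped for each of the 10, whereas 2.44% of all genes were higher in every sgTaz tumor than in every sgCon tumor. The 4 ligands all had positive log2 fold changes with a median of 0.25. Of the 5 receptors 3 were positive and 2 negative, with a median of 0.22, which was 0.13 without sgCon tumor 5 and likewise without sgTaz tumor 1. The median of all genes tested was -0.019.

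**Figure D1:**
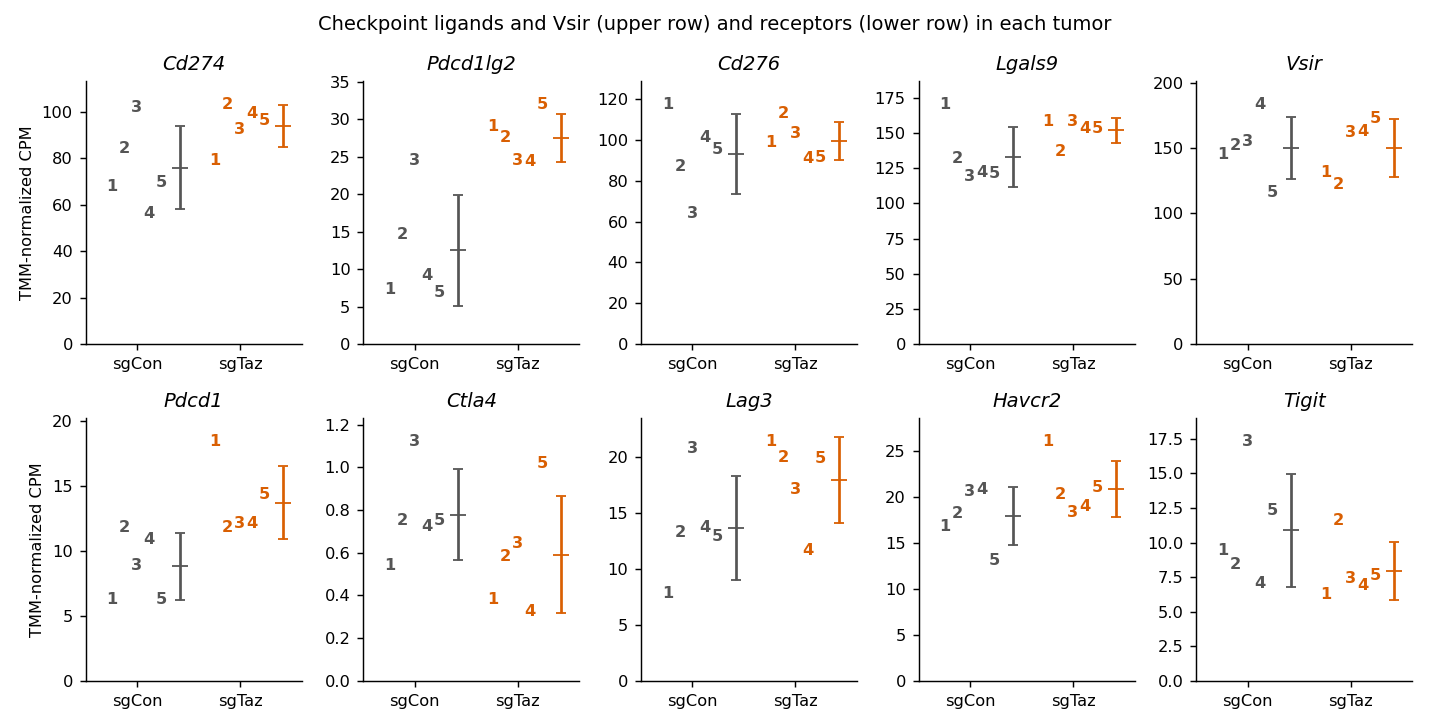
TMM-normalized CPM (vertical axes from 0, a scale for each gene) of the 10 checkpoint genes, with each digit standing for the tumor of that number, and with the mean and SD of the 5 tumors at the right of each group. sgCon tumor 3 reached the level of the sgTaz tumors for Pdcd1lg2, at 24.5 CPM, and had the highest Tigit of all 10 tumors, at 17.3 CPM.

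Among the ligands, PD-L2 stood out. Pdcd1lg2 was at 7.33, 14.6, 24.5, 9.21 and 6.92 CPM in sgCon tumors 1 to 5, which were 122, 292, 393, 166 and 101 counts. It was at 29.0, 27.6, 24.5, 24.4 and 31.9 CPM in sgTaz tumors 1 to 5. The sgTaz tumors were close together and 3 of them lay above every sgCon tumor, while sgCon tumor 3 was as high as the lowest sgTaz tumors. The means were 12.5 ± 7.38 and 27.5 ± 3.19 CPM (SD, n = 5 each), with a log2 fold change of 1.13 (SE 0.31) in edgeR at an adjusted p of 0.10. DESeq2 gave 1.14 (adjusted p = 0.012) and limma-voom gave 1.28 (adjusted p = 0.022). Without sgCon tumor 3 the edgeR value was 1.52 (adjusted p = 0.055), and without sgTaz tumor 5 it was 1.07 (adjusted p = 0.12).

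PD-L1, the other ligand of PD-1, differed less. Cd274 was at 67.8, 84.1, 102, 56.2 and 69.6 CPM in sgCon tumors and at 79.0, 103, 92.6, 99.2 and 96.1 CPM in sgTaz tumors. sgCon tumor 3 was again the highest of its group and within the range of the sgTaz tumors, of which tumor 1 was below sgCon tumors 2 and 3. The log2 fold change was 0.31 (SE 0.14) and did not pass edgeR (adjusted p = 0.25), DESeq2 (adjusted p = 0.20) or limma-voom (adjusted p = 0.066). Exons of Cd274 share 511 bases with the antisense gene AC119228.1, and since the strand setting of the counting was not stated, reads of the pair may not be told apart. With PD-L2 set against PD-L1 within each tumor, Pdcd1lg2 was at 10.8, 17.4, 23.9, 16.4 and 9.94 CPM per 100 CPM of Cd274 in sgCon tumors and at 36.6, 26.8, 26.4, 24.6 and 33.2 in sgTaz tumors. This ratio, chosen after the values were seen and given without a test, did not overlap between the groups.

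Lgals9, whose product galectin-9 binds TIM-3, was at 170, 132, 119, 122 and 121 CPM in sgCon tumors and at 158, 137, 158, 153 and 153 CPM in sgTaz tumors. All sgTaz tumors were above sgCon tumors 2 to 5 and below sgCon tumor 1, with a log2 fold change of 0.19 (SE 0.10, adjusted p = 0.30 in edgeR) that was 0.30 without sgCon tumor 1. Cd276, a B7 family molecule that carcinoma cells often carry and whose receptor is not settled, was at 117, 87.1, 64.0, 101 and 95 CPM in sgCon tumors and at 98.5, 113, 103, 90.8 and 91.2 CPM in sgTaz tumors. sgCon tumors 1 and 3 were the highest and the lowest of all tumors, and the log2 fold change was 0.10 (SE 0.14, adjusted p = 0.71 in edgeR). It was 0.20 without sgCon tumor 1, -0.0039 without sgCon tumor 3 and 0.046 without sgTaz tumor 2. Exons of Cd276 share 416 bases with the antisense gene Gm10657, with the same limit as for Cd274. The summed level of the 4 ligands was 289 to 363 CPM in sgCon tumors and 365 to 380 CPM in sgTaz tumors, while that of the 5 receptors was 40.8 to 68.8 CPM and 50.0 to 72.4 CPM, with overlap. These sums were not tested. For the ligands, sgCon tumor 1 at 363 CPM and sgTaz tumor 1 at 365 CPM were nearly level, and each ligand alone overlapped. Of all single genes, 2.44% were higher in sgTaz tumors without overlap.

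VISTA, which is carried mainly by myeloid cells and acts on T cells, did not pass the test, with an estimate near 0. Vsir was at 145, 152, 155, 183 and 116 CPM in sgCon tumors and at 131, 122, 162, 163 and 173 CPM in sgTaz tumors, with a log2 fold change of -0.0016 (SE 0.13, adjusted p = 1.00 in edgeR). The range of the sgTaz tumors lay within that of the sgCon tumors.

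Among the receptors, PD-1 had the largest difference. Pdcd1 was at 6.25, 11.8, 8.86, 10.9 and 6.23 CPM in sgCon tumors and at 18.4, 11.8, 12.1, 12.1 and 14.3 CPM in sgTaz tumors. Of the sgTaz tumors 4 lay above every sgCon tumor, and the other, tumor 2, was level with sgCon tumor 2. The means were 8.80 ± 2.56 and 13.7 ± 2.80 CPM (SD, n = 5 each), a log2 fold change of 0.64 (SE 0.21) with adjusted p = 0.14 in edgeR, 0.058 in DESeq2 and 0.091 in limma-voom.

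Lag3, whose product is a receptor of MHC class II on T cells, was at 7.81, 13.3, 20.8, 13.7 and 12.9 CPM in sgCon tumors and at 21.4, 20, 17.1, 11.7 and 19.9 CPM in sgTaz tumors, with a log2 fold change of 0.40 (SE 0.24, adjusted p = 0.35 in edgeR). sgCon tumor 3 was within the upper sgTaz tumors and sgTaz tumor 4 was below 4 sgCon tumors. The value was 0.25 without sgCon tumor 1 and 0.60 without sgCon tumor 3. Havcr2, whose product TIM-3 is carried by T cells and by macrophages and dendritic cells, was at 16.8, 18.2, 20.6, 20.8 and 13.1 CPM in sgCon tumors and at 26.0, 20.3, 18.3, 18.9 and 21 CPM in sgTaz tumors. Only sgTaz tumors 1 and 5 exceeded the sgCon range, and the log2 fold change was 0.22 (SE 0.14, adjusted p = 0.39 in edgeR), or 0.13 without sgCon tumor 5 and likewise without sgTaz tumor 1.

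TIGIT and CTLA-4 had negative log2 fold changes. Tigit, the receptor of PVR and nectin-2, was at 9.43, 8.41, 17.3, 7.05 and 12.3 CPM in sgCon tumors and at 6.24, 11.6, 7.39, 6.88 and 7.64 CPM in sgTaz tumors, with a log2 fold change of -0.46 (SE 0.26, adjusted p = 0.32 in edgeR). sgCon tumors 3 and 5 were the highest, and the other sgCon tumors lay within the sgTaz range. Without sgCon tumor 3 the value was -0.22. Ctla4, which competes with CD28 for CD80 and CD86, was close to the limit of this depth, with 9, 15, 18, 13 and 11 counts in sgCon tumors and 6, 9, 12, 4 and 14 counts in sgTaz tumors. The groups overlapped, at 0.778 ± 0.212 and 0.590 ± 0.274 CPM (SD, n = 5 each), and a difference was not detectable at this depth (log2 fold change -0.39, SE 0.34, adjusted p = 0.53 in edgeR). It was -0.22 without sgCon tumor 3, -0.25 without sgTaz tumor 4 and -0.66 without sgTaz tumor 5.

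To compare levels between genes, CPM was divided by exon length in kb. Lgals9 was the highest in both groups, at 62.2 ± 10.1 CPM per kb in sgCon tumors and 71.0 ± 4.13 in sgTaz tumors, and its range did not overlap that of Vsir, the next gene. Vsir, Cd276 and Cd274 followed at 30.0 ± 4.78, 25.4 ± 5.34 and 21 ± 4.91 CPM per kb in sgCon tumors and at 29.9 ± 4.41, 27.2 ± 2.55 and 25.9 ± 2.53 in sgTaz tumors, with ranges that overlapped from each gene to the next. Among the receptors of sgCon tumors, Tigit was at 11.9 ± 4.44 CPM per kb, above Havcr2 at 6.58 ± 1.16 without overlap. The lowest Tigit, 7.67, was barely above the highest Havcr2, 7.63, and Lag3 reached 9.88 and so overlapped Tigit. Lag3 (6.49 ± 2.20), Pdcd1lg2 (6.38 ± 3.76) and Pdcd1 (4.56 ± 1.33 CPM per kb) overlapped with each other in their ranges. In sgTaz tumors Pdcd1lg2 stood at 14.0 ± 1.63 CPM per kb, in the fifth place, and overlapped only with Tigit at 8.64 ± 2.28, which was followed by Lag3 (8.55 ± 1.82), Havcr2 (7.68 ± 1.12) and Pdcd1 (7.11 ± 1.45). Ctla4 was the lowest in both groups, at 0.334 ± 0.091 and 0.253 ± 0.118 CPM per kb.

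Markers of immune cells also varied between tumors, and the means of their lists differed between the groups without a gene called by edgeR. Their part in the values above was not tested beyond the fits at equal score that follow. The 9 T cell genes (Cd3d, Cd3e, Cd3g, Cd2, Cd5, Cd6, Cd247, Lck and Zap70) all had negative log2 fold changes with a median of -1.82. Of them 9 had an unadjusted p below 0.05 in edgeR (11.9% of all genes were lower at this p), 0 passed its adjusted test, and 4 were called lower by DESeq2 (3.63% of all genes). Their summed level was 334 ± 292 CPM in sgCon and 106 ± 60.4 CPM in sgTaz tumors (SD, n = 5 each), led by Lck at 81.9 and 24.9 CPM, and none was at 0. In sgCon tumors 1 to 5 the sum was 184, 187, 826, 103 and 371 CPM, and in sgTaz tumors 1 to 5 it was 95.6, 67.8, 83.0, 72.4 and 213 CPM. sgCon tumor 3 and sgTaz tumor 5 were thus the highest of their groups. Of the 11 macrophage genes 10 had positive log2 fold changes, 6 with an unadjusted p below 0.05 in edgeR (9.86% of all genes were higher at this p), 0 past its adjusted test and 4 called higher by DESeq2 (3.6% of all genes), with a sum of 1500 ± 448 and 2120 ± 262 CPM, led by C1qa at 394 and 492 CPM, and none at 0. Genes of lymph node stroma, led by Glycam1, set sgTaz tumor 5 apart, with a sum of 385 CPM where sgTaz tumors 1 to 4 had 1.55 to 7.61 CPM. In sgCon tumors the sum was 142, 162, 807, 40.0 and 285 CPM, so that sgCon tumor 3 was the highest of all 10. This tumor also had the most reads of the muscle genes Myh4 (219 counts) and Acta1 (151 counts), which were below the filter. The 8 B cell genes, led by Cd79a at 67.0 and 7.27 CPM, all had negative log2 fold changes with a median of -3.11, 7 with an unadjusted p below 0.05 in edgeR (against 11.9%), 0 past its adjusted test and 0 called by DESeq2 (against 3.63%). Their sum was 68.1 to 881 CPM in sgCon tumors, 7.56 to 21.7 CPM in sgTaz tumors 1 to 4 and 195 CPM in sgTaz tumor 5 (339 ± 326 and 48.9 ± 82.1 CPM, SD, n = 5 each), and none was at 0. The 5 neutrophil genes that passed the filter, led by S100a9 at 179 and 69.3 CPM, were all negative with a median of -0.96, and the whole list was at a sum of 352 ± 205 and 155 ± 73.8 CPM.

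**Figure D2:**
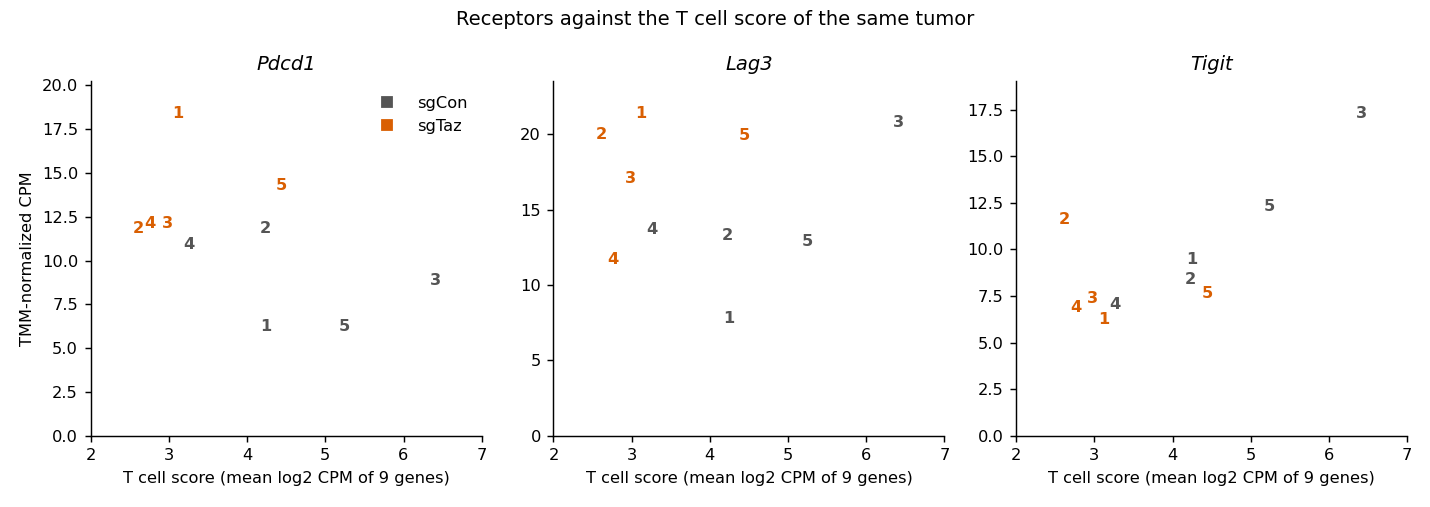
CPM of Pdcd1, Lag3 and Tigit (vertical axes from 0) against the T cell score of the same tumor (horizontal axis, mean log2 CPM of the 9 T cell genes), with digits for tumor numbers. sgCon tumor 3 had the highest T cell score, 6.41, and the highest Tigit, whereas Pdcd1 was highest in sgTaz tumor 1 with a T cell score of 3.12.

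The receptors were next set against the T cell genes of the same tumor. Per 100 CPM of the summed T cell genes, Pdcd1 was at 3.40, 6.30, 1.07, 10.5 and 1.68 CPM in sgCon tumors and at 19.2, 17.3, 14.5, 16.8 and 6.71 CPM in sgTaz tumors. The 4 sgTaz tumors other than tumor 5 were above every sgCon tumor, as they also were for Lag3 and Havcr2. Lag3 was at 6.12 ± 4.34 and 19.6 ± 7.46 CPM on this scale, Havcr2 at 9.01 ± 7.01 and 23.0 ± 7.87 CPM, Tigit at 4.38 ± 1.80 and 9.11 ± 5.01 CPM, and Ctla4 at 0.347 ± 0.221 and 0.591 ± 0.209 CPM (SD, n = 5 each), with overlap of the groups for each. These ratios are descriptions, since PD-1, LAG-3 and TIM-3 are also carried by cells other than T cells. How many of all genes such a ratio would set apart was not computed. The summed lymph node stroma genes were at 40.0 to 807 CPM in sgCon tumors and 385 CPM in sgTaz tumor 5. In sgTaz tumors 1 to 4 they were at 1.55 to 7.61 CPM. The part of lymph node tissue in the T cell sums, and so in these ratios, was not tested.

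To set the groups side by side at equal T cell score, which is the mean log2 CPM of the 9 T cell genes, edgeR was fitted to all genes with the score as a covariate. No gene of the whole table then passed an adjusted p below 0.05 for the group term, and 1989 genes (13.4%) had an unadjusted p below 0.05. Of the 10 members 3 did. Pdcd1lg2 was at a log2 fold change of 1.70 (SE 0.33, adjusted p = 0.17), Cd274 at 0.57 (SE 0.16, adjusted p = 0.24) and Lag3 at 0.73 (SE 0.27, adjusted p = 0.30), each larger than without the score. For Pdcd1lg2 this rested on sgCon tumor 3, without which the value was 1.52 both with and without the score. Per unit of the score, Cd274 and Lag3 were higher by 0.16 and 0.21, and by 0.038 and 0.030 without this tumor. Pdcd1 was at 0.56 (SE 0.27), and the values of Tigit (0.04, SE 0.29) and Ctla4 (0.08, SE 0.38) were near 0. With a tumor left out, Tigit ranged from -0.12 without sgCon tumor 4 to 0.32 without sgTaz tumor 5, and Ctla4 from -0.25 without sgTaz tumor 5 to 0.41 without sgCon tumor 4.

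Within the groups, the T cell score had an unadjusted p below 0.05 in 19.6% of all genes and in 4 members. Per unit of the score, Pdcd1lg2 was higher by 0.34 (SE 0.13), Tigit by 0.28 (SE 0.12) and Cd274 by 0.16 (SE 0.067) on the log2 scale, and Cd276 was lower, at -0.18 (SE 0.062). None passed the adjustment (edgeR, adjusted p of 0.13 to 0.22), which 6.88% of all genes did. These slopes rested on sgCon tumor 3, the tumor with the most T cell RNA. Without it they were 0.0030 for Pdcd1lg2, 0.11 for Tigit, 0.038 for Cd274 and -0.10 for Cd276. The slope of Pdcd1lg2 without sgCon tumor 5 (0.39, adjusted p = 0.050, just below the threshold) and that of Tigit without sgTaz tumor 2 (0.35, adjusted p = 0.020) passed in edgeR, as did 6.31% and 7.63% of all genes in these fits.

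The slope of the macrophage score had an unadjusted p below 0.05 in 8.57% of all genes and in 3 members, which were Vsir (0.59, SE 0.15), Pdcd1 (0.85, SE 0.29) and Tigit (-0.88, SE 0.40), with adjusted p of 0.26, 0.44 and 0.58 in edgeR, so that none passed. With a tumor left out, the slope of Tigit ranged from -1.34 without sgCon tumor 5 to -0.68 without sgTaz tumor 2. At equal macrophage score, the group term had an unadjusted p below 0.05 in 7.09% of all genes and in 1 member, Vsir, which was lower by a log2 fold change of -0.31 (SE 0.12, adjusted p = 0.68). Pdcd1lg2 was then at 0.88 (SE 0.44, adjusted p = 0.72) and Pdcd1 at 0.24 (SE 0.22, adjusted p = 0.80). With a tumor left out, Pdcd1lg2 ranged from 0.51 without sgCon tumor 4 to 1.20 without sgCon tumor 3, and Pdcd1 from 0.11 without sgTaz tumor 1 to 0.34 without sgCon tumor 2. Since the T cell score was lower (4.68 and 3.18) and the macrophage score higher (6.52 and 7.05) in the sgTaz group, the parts of group and scores in the level of a member cannot be told apart.

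**Figure D3:**
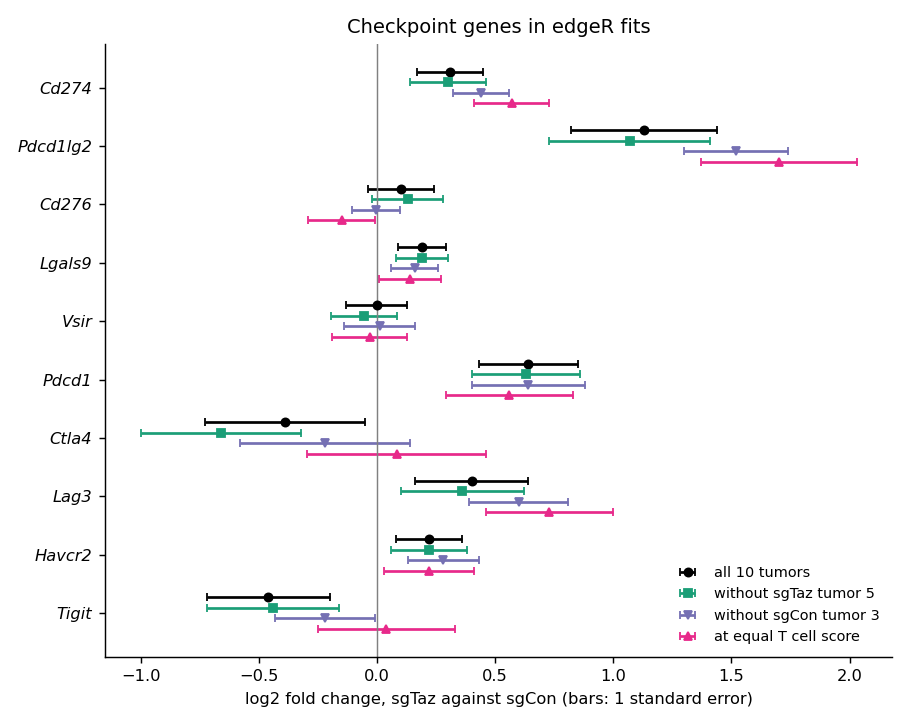
Log2 fold changes of sgTaz against sgCon tumors (horizontal axis) with 1 standard error for the 10 checkpoint genes in 4 edgeR fits, with all tumors, without sgTaz tumor 5, without sgCon tumor 3, and at equal T cell score. Pdcd1lg2 lay right of 0 by more than its error in each fit, from 1.07 to 1.70, and Tigit moved from -0.46 to 0.04 at equal T cell score.

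Other genes of the same axes were examined by lists, in which edgeR called 0 genes in all. Of the 14 genes of the interferon-gamma response, 12 had positive log2 fold changes, with a median of 0.15. At an unadjusted p below 0.05 in edgeR, 6 were higher and 0 lower, against 9.86% and 11.9% of all genes, and DESeq2 called 4 higher, against 3.6% of all genes called higher by DESeq2 and 3.63% lower. Gbp4, an interferon-inducible GTPase, was at 368 ± 50.9 CPM in sgCon and 544 ± 75.5 CPM in sgTaz tumors (log2 fold change 0.56, SE 0.12, adjusted p = 0.082 in edgeR and 0.00099 in DESeq2). Gbp2, of the same family, was at 311 ± 28.9 and 399 ± 40.1 CPM (0.36, SE 0.089, adjusted p = 0.096 in edgeR), and in both genes, chosen for the smallest p of the list, the groups did not overlap (2.44% of all genes were higher without overlap). In their means, the summed macrophage genes (1500 and 2120 CPM) were higher and the summed epithelial genes (3120 and 2230 CPM) lower in sgTaz tumors. Their part in these values was not tested.

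In the list of MHC class II genes and LAG-3 ligands, those that passed the filter were also higher in their estimates. All 4 that passed the filter had positive log2 fold changes with an unadjusted p below 0.05 in edgeR, as 9.86% of all genes did, and a median of 0.46. DESeq2 called 0, and limma-voom, which called 10.4% of all genes, called 3 (H2-Eb1, Cd74 and Ciita, which encodes the class II transactivator and is named for this count). The invariant chain gene Cd74 was at 1920 ± 517 CPM in sgCon and 2600 ± 327 CPM in sgTaz tumors (0.43, SE 0.17, adjusted p = 0.18 in edgeR). H2-Eb1, which encodes a class II chain, was at 260 ± 84.1 and 385 ± 36.2 CPM (0.57, SE 0.19, adjusted p = 0.14), and H2-DMa, whose product loads peptides, at 130 ± 30.4 and 181 ± 28.4 CPM (0.48, SE 0.16, adjusted p = 0.14). H2-Ab1 was below the filter, with 2, 7, 12, 8 and 2 counts in sgCon tumors and 4, 1, 3, 3 and 2 counts in sgTaz tumors. This was far below H2-Eb1 and Cd74 in the same tumors. Whether so low a count reflects its expression or the mapping of its reads was not tested. H2-Aa and Fgl1 were not found by symbol among the 17864 genes with counts, and so have no value here. The 4 genes tested therefore do not cover H2-Ab1 and H2-Aa. The summed macrophage genes given above were higher in the mean of the sgTaz tumors as well, and their part in these values was not tested.

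**Figure D4:**
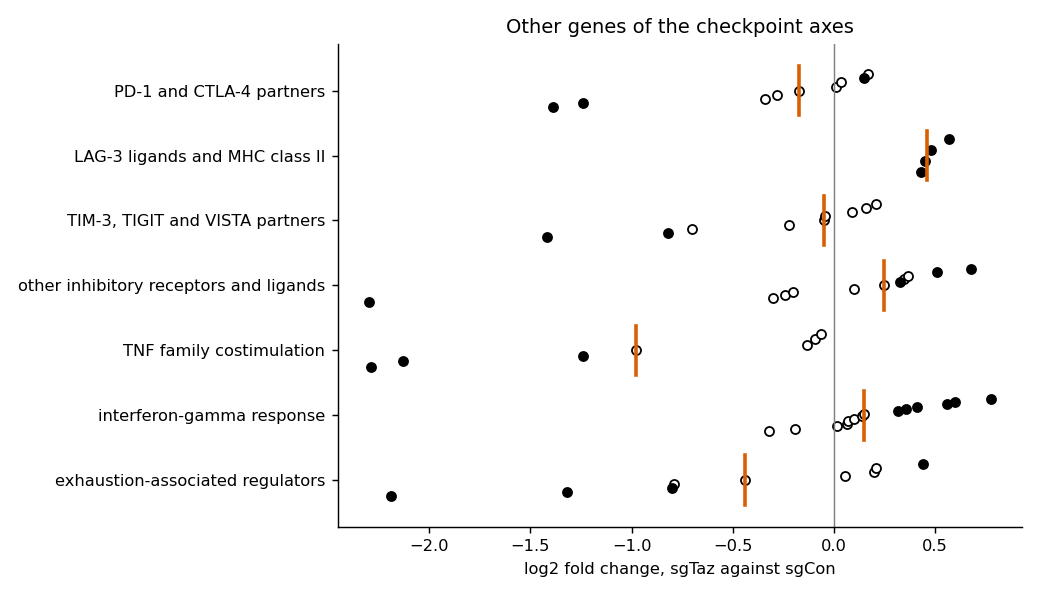
Log2 fold changes of sgTaz against sgCon tumors (horizontal axis) for the genes of 7 lists (rows), with filled points for an unadjusted p below 0.05 in edgeR and an orange bar at the median of each list. The list medians ran from -0.98 for TNF family costimulation to 0.46 for LAG-3 ligands and MHC class II.

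The genes of costimulation lay on the other side. All 7 genes of the TNF family list that passed the filter had negative log2 fold changes, with a median of -0.98, 3 with an unadjusted p below 0.05 in edgeR (11.9% of all genes were lower at this p), and 1 called lower by DESeq2 (3.63% of all genes). This was Cd27, a costimulatory receptor of T and B cells, at 22.5 ± 20.9 CPM in sgCon and 5.15 ± 3.70 CPM in sgTaz tumors (-2.13, SE 0.62, adjusted p = 0.11 in edgeR and 0.030 in DESeq2). Tnfrsf4 (OX40) was at 5.45 ± 4.39 and 2.31 ± 1.26 CPM (-1.24, SE 0.51), while Tnfrsf9 (4-1BB), the most abundant of the list, was at 47.1 ± 4.23 and 44.2 ± 5.66 CPM (-0.09, SE 0.10). Without sgCon tumor 3, Cd27 was at -1.39 and Tnfrsf4 at -0.63, and Tnfrsf9 was at -0.017 without sgTaz tumor 1 and -0.14 without sgCon tumor 1. The T cell genes (median -1.82) and the B cell genes (median -3.11) were lower in their estimates as well, and their part in these values was not tested.

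Among the partners of PD-1 and CTLA-4, 4 genes had positive and 5 negative log2 fold changes, with 1 higher and 2 lower at an unadjusted p below 0.05 in edgeR (9.86% and 11.9% of all genes). Icosl, the ligand of the costimulatory receptor ICOS, was at 28.3 ± 16.2 CPM in sgCon and 12 ± 6.30 CPM in sgTaz tumors (-1.24, SE 0.40, adjusted p = 0.13 in edgeR), and was the 1 gene of the list called by DESeq2 (adjusted p = 0.025), which called 3.63% of all genes lower. Ptpn11, the gene of the phosphatase SHP-2 that PD-1 recruits, was at 182 ± 12 and 202 ± 6.57 CPM (0.15, SE 0.063), and Cmtm6, whose product keeps PD-L1 at the cell surface, at 130 ± 10 and 131 ± 9.39 CPM (0.01, SE 0.075). Among the partners of TIM-3, TIGIT and VISTA, 3 were positive and 6 negative, with 0 higher and 2 lower at an unadjusted p below 0.05 in edgeR (9.86% and 11.9% of all genes), and DESeq2, which called 7.22% of all genes, called 0. These 2 were Cd96, which shares the ligand PVR with TIGIT, at 12.8 ± 11.1 and 4.77 ± 2.85 CPM (-1.42, SE 0.55), and Selplg (PSGL-1), described as a partner of VISTA, at 78.8 ± 43.0 and 44.6 ± 13.5 CPM (-0.82, SE 0.32). Without sgCon tumor 3 they were at -0.74 and -0.43 in edgeR. Without sgTaz tumor 5 they were at -1.84 and -1.01 in DESeq2, which then called both, as it did 7.76% of all genes. Cd96, Selplg and Icosl were highest in sgCon tumor 3 and sgTaz tumor 5 of their groups, as were the summed T cell and B cell genes, whose part in these values was not tested. The abundant genes of this list, Hmgb1 and Bag6, were at 277 ± 36.5 and 270 ± 24.2 CPM and at 171 ± 10.7 and 183 ± 10.1 CPM.

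The other inhibitory receptors and ligands split into 7 positive and 4 negative genes, with a median of 0.25, and DESeq2 called 1 in each direction (3.6% of all genes higher and 3.63% lower). Btla, an inhibitory receptor of B and T cells, was at 5.23 ± 4.01 CPM in sgCon and 1.08 ± 1.52 CPM in sgTaz tumors (-2.30, SE 0.82, adjusted p = 0.15 in edgeR and 0.041 in DESeq2). Without sgTaz tumor 5 it was at -3.71 (adjusted p = 0.043 in edgeR, which called 1.15% of all genes in this fit). Btla was highest in sgCon tumor 3 and sgTaz tumor 5 of their groups, as were the summed B cell genes, whose part in this value was not tested. Lair1, a collagen receptor of many leukocytes, was at 42.6 ± 14.1 and 68.3 ± 12.9 CPM (0.68, SE 0.23, adjusted p = 0.14 in edgeR and 0.031 in limma-voom). In DESeq2 its adjusted p was 0.050, just below the threshold. Without sgTaz tumor 5 DESeq2 did not call it, at 0.68. Cd47 and its myeloid receptor gene Sirpa, the don't-eat-me pair, were at 328 ± 24.9 and 352 ± 39.5 CPM (0.10, SE 0.088) and at 80.7 ± 17.5 and 101 ± 7.22 CPM (0.33, SE 0.13). Cd47 was at 0.058 without sgCon tumor 1 and 0.030 without sgTaz tumor 2. The macrophage genes (sum 1500 and 2120 CPM) were higher in their estimates as well, and their part in the values of Lair1 and Sirpa was not tested.

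The regulators associated with T cell exhaustion were 4 positive and 5 negative, with a median of -0.44, and 1 higher and 3 lower at an unadjusted p below 0.05 in edgeR (9.86% and 11.9% of all genes). Tcf7, the gene of TCF-1 in naive and stem-like T cells, was at 86.9 ± 75.8 CPM in sgCon and 19.1 ± 13.5 CPM in sgTaz tumors (-2.19, SE 0.60, adjusted p = 0.10 in edgeR and 0.021 in DESeq2), and was the 1 gene of the list that DESeq2 called (3.63% of all genes were called lower). Entpd1, the gene of the ectonucleotidase CD39, was at 52.4 ± 9.26 and 71.3 ± 11.9 CPM (0.44, SE 0.14, adjusted p = 0.13 in edgeR). The direction of Tcf7 was that of the T cell genes, and that of Entpd1 was the direction of the macrophage genes, whose parts in these values were not tested.

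To describe which genes varied with the members from tumor to tumor, log2 CPM was correlated over the 10 tumors after the group means were taken off, among 14064 genes with a mean of at least 1 CPM (14065 for Ctla4). The points share library and depth, no p is given, and with so many genes a high r was found for every member. Nearest to Pdcd1lg2 were Grk4 (r = 0.97), Anpep (0.96), the gene of the peptidase CD13, and Sgsh (0.95). Nearest to Cd274 were Gm15975 (0.94), Akirin1 (0.93) and Parp2 (0.93), and nearest to Pdcd1 were Tpst1 (0.96), Psmb3 (0.96) and Ndufb4 (0.94). For Vsir they were Tnfsf13 (0.97), Cst3 (0.96) and Atp6v1b1 (0.94), for Tigit Bcar3 (0.96), Unc13d (0.95) and L3mbtl3 (0.95), and for Lag3 Tnni3 (0.98), Sdad1 (0.96) and Syngr2 (0.96). For Havcr2, Ctla4, Cd276 and Lgals9 the first in order were Gm49727 (0.97), 2810403D21Rik (0.97), Mlkl (0.98) and Pop1 (0.96).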

How the data were processed

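The authors sequenced 5 sgCon and 5 sgTaz 4T1 tumors, aligned the reads to mm10 (STAR, GENCODE version 12 as the methods write it) and summed them by gene with featureCounts of Subread. The deposited values are these raw counts, and 5 further columns that match no sample label were not used. Versions of the tools and the strand setting of the counting are not given in the sources used here. Tumors were grouped by their labels, and their replicate numbers were not taken as pairs. That the tumors came from separate mice is not labelled, and p-values measure the spread between these tumors.

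Of 17864 identifiers 17860 matched GENCODE M21. The quasi-likelihood test of edgeR 4.0.16 under R 4.3.3 was the main test (TMM, filterByExpr, glmQLFit, glmQLFTest, Benjamini-Hochberg). The filter kept 14816 genes and left out 3048. DESeq2 1.42.0 and limma 3.58.1 (voom with sample quality weights), other normalizations and filters, each tumor left out, and a block by replicate number were alternatives. A score is the mean log2 CPM (prior count 2) of the genes of a list that passed the filter. Standard errors came from the F statistic. The script of the fits was tested on simulated counts. Sequences are from RefSeq, and figures were drawn with matplotlib 3.10.9.

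The members and lists were chosen with earlier results of these data known. Named are all members and Wwtr1, from each pathway list the 2 genes of smallest p and the 2 of highest mean CPM (except 1 gene that is not reported here), the most abundant gene of the marker lists described, and the 3 genes nearest to a member in correlation, shortened to 1 for 4 members. The ratios, the slopes with a tumor left out, and DESeq2 and limma-voom without sgTaz tumor 5 were added after the data were seen.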

Additional observations from a re-analysis of the deposited data

Results flagged for a closer look

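Of 22 groups of 5 tumors that were looked at for a tumor far from the others, 1 was found, where chance gives 1.1. It was Lgals9 in sgTaz tumor 2, at a log2 CPM of 7.09 against 7.26 to 7.31 in the other sgTaz tumors, or 137 CPM against 153 to 158 CPM.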

How the results depend on the processing

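The number of members called, 0 in edgeR, was 1 in DESeq2, in limma-voom, and in both without sgTaz tumor 5, and stayed at 0 with any tumor left out. The count at an unadjusted p below 0.05, 2 in edgeR, was 4 in limma-voom with and without sgTaz tumor 5, where 30.8% and 29.8% of all genes were past it. It was 2 to 4 with a tumor left out, with 4 without sgCon tumor 3 (18.7% of all genes). Of the 63 pathway genes tested, 0 in edgeR, 9 were called by DESeq2 and 13 by limma-voom (7.22% and 10.4% of all genes), and without sgTaz tumor 5 they were 13 and 12 (7.76% and 9.52%). With a tumor left out the edgeR count was 0 to 1, and the 1 was Btla without sgTaz tumor 5, where edgeR called 1.15% of all genes. The median of the ligands was 0.19 to 0.30 with a tumor left out and 0.24 to 0.28 under the other settings, and that of the receptors 0.13 to 0.28 and 0.20 to 0.30.

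Direction changed for estimates near 0 or at equal score. Cd276 was at -0.15 at equal T cell score (-0.25 to -0.044 with a tumor left out) and at -0.13 at equal lymph node stroma score (-0.73 to -0.021). Without a score it was between -0.0039 and 0.20 with a tumor left out. Vsir was at 0.0086 in DESeq2 and with RLE size factors, 0.13 in limma-voom and 0.091 in limma-voom without sgTaz tumor 5. It was at 0.021 without a filter and -0.081 to 0.081 with a tumor left out. At equal lymph node stroma score it was at 0.092, or -0.19 to 0.30 with a tumor left out. Ctla4 was at 0.083 at equal T cell and 0.28 at equal lymph node stroma score (0.17 to 0.42 with a tumor left out). Tigit was at 0.040 at equal T cell and 0.0053 at equal macrophage score (-0.20 to 0.18 with a tumor left out). Cmtm6 was at -0.0077 in DESeq2 and -0.00083 in limma-voom without sgTaz tumor 5, and at -0.024 to 0.047 with a tumor left out. Hmgb1 was at 0.014 in DESeq2 without sgTaz tumor 5 and at -0.089 to 0.037 with a tumor left out. The causes were not tested.

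The replicate numbers did not pair the tumors, since tumors of the same number correlated at -0.24 to 0.22, 1 of 5 above 0.1, and 1 of 5 correlated best with its own number. With the replicate block 0 members were called, and Pdcd1lg2 was at 1.29 (edgeR adjusted p = 0.16). Depth limits Ctla4, with at most 18 counts per tumor.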
